A study of Rattus norvegicus with 24 samples.

Results

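Cultured striatal neurons of newborn rats were stimulated through the D1 dopamine receptor while the BET family of chromatin readers was inhibited, and their RNA was compared with that of neurons given the inhibitor alone. The stimulated group received SKF, an agonist of the D1 receptor, together with JQ1, an inhibitor of BET bromodomains, for 60 min. The group it was set against received JQ1 with DMSO, the vehicle, for the same time. The cells were primary cultures on day 7 in vitro, and the labels give no doses and do not say which compound of the SKF series was used. Each group had 2 libraries, numbered 5 and 6, so the comparison rests on 4 of the 24 samples of the series, of which 23 were analysed here. The same experiment held a parallel pair of groups without inhibitor, SKF with DMSO and DMSO alone, with 2 libraries each. An SKF group and a DMSO group of a second experiment, also at 60 min, and SKF plus JQ1 and JQ1 groups of one more experiment, at 24 h, are used below for comparison. The libraries were made from total RNA after removal of ribosomal RNA.

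The striatum is the main target of dopamine in the forebrain, and of its projection neurons one class carries the D1 receptor and the other the D2 receptor. The D1 receptor raises cyclic AMP, which activates protein kinase A, the ERK kinases and the transcription factor CREB. CREB and other preformed factors then switch on immediate early genes, which need no new protein for their transcription, and many of these encode transcription factors themselves. BET proteins bind acetylated histones and recruit P-TEFb, the kinase complex that releases paused RNA polymerase into elongation, and JQ1 displaces them from chromatin. The question of the comparison was which genes D1 stimulation still moves when BET proteins are inhibited.

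Gene levels are given in FPKM, fragments scaled to transcript length and to the aligned fragments of the library, summed over the transcripts of a gene and divided by a size factor of the library. Differences are log2 fold changes ± SE fitted with limma. P-values were adjusted by Benjamini-Hochberg over 14007 genes, and an adjusted p under 0.05 was the threshold for a call. The spread of each gene was estimated from all 23 libraries fitted, also those outside the comparison. Whether libraries with the same treatment stem from different cultures is not in the labels. Each p thus reflects the scatter between libraries of 1 group, pooled over the groups, and that scatter may be technical. The 4 libraries held 8.18 to 11.4 gigabases of aligned sequence, and 4.36 to 14.9 over the 23 libraries. Neuronal markers such as Snap25, Syt1 and Gad2 were abundant in every library of the comparison, and Syt1 had 423 and 434 FPKM with SKF plus JQ1, against 446 and 449 FPKM with JQ1. The SKF libraries without JQ1 differed from each other. Over 23 early genes that rose with SKF in the second experiment, replicate 5 of SKF alone had a median log2 change of 1.21 over the DMSO mean, against 1.63 in replicate 6, while the SKF plus JQ1 libraries had 1.66 and 1.76 over the JQ1 mean.

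D1 stimulation under JQ1 moved a small set of genes, nearly all of them upward. Of 14007 genes tested, 178 changed (1.27%), 167 higher (1.19%) and 11 lower (0.0785%) with SKF plus JQ1 than with JQ1. At least a doubling was reached by 37 of the rises and at least a 4-fold change by 10, while none of the falls came to a halving. The median log2 change of all genes tested was 0.00067. Both SKF plus JQ1 libraries lay above both JQ1 libraries for 3066 genes (21.9%), and below both for 2824 (20.2%). Leaving out JQ1 replicate 5 turned the count of 178 into 105, leaving out SKF plus JQ1 replicate 5 into 112 and leaving out SKF plus JQ1 replicate 6 into 117, and it was 114 with the first experiment fitted alone. Of the 167 rises, 83 were called under all 16 alternative settings.

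The orphan nuclear receptors of the Nr4a family, transcription factors that need no hormone to act, were among the strongest responders. Nr4a2 (chromosome 3, 43111240 to 43119159 of Rnor_6.0, minus strand) had 34.1 and 33.0 FPKM in the SKF plus JQ1 libraries, against 5.21 and 5.91 FPKM in the JQ1 libraries. Nr4a1 had 184 and 201 FPKM with SKF plus JQ1, against 33.7 and 37.2 FPKM with JQ1. Nr4a3 had 72.5 and 73.2 FPKM with SKF plus JQ1, against 20.9 and 21.5 FPKM with JQ1. In all 3 genes the stimulated libraries lay far above the others and close to each other. The log2 change was 2.49 ± 0.11 for Nr4a2 (adjusted p = 2.9e-10), 2.42 ± 0.25 for Nr4a1 (adjusted p = 9.3e-05) and 1.76 ± 0.10 for Nr4a3 (adjusted p = 1.7e-08).

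Genes of AP-1, the dimeric factor made of a Fos and a Jun protein, rose with them. Fos had 281 and 293 FPKM with SKF plus JQ1, against 61.5 and 65.6 FPKM with JQ1, a change of 2.17 ± 0.17 (adjusted p = 3.0e-06). Fosb had 110.2 and 109.7 FPKM with SKF plus JQ1, against 26.4 and 30.7 FPKM with JQ1, a change of 1.93 ± 0.25 (adjusted p = 0.00096). Junb had 164 and 159 FPKM with SKF plus JQ1, against 33.8 and 36.1 FPKM with JQ1, a change of 2.19 ± 0.14 (adjusted p = 7.5e-08). No SKF plus JQ1 library of these genes came near a JQ1 library. Fosl1 and Fosl2, which encode further Fos-type partners, rose by 1.99 ± 0.18 and 1.58 ± 0.10. The other Jun genes moved little, Jun by 0.25 and Jund by 0.25, though both passed the test. The Fosb call was lost with the first experiment fitted alone (adjusted p = 0.0996), and the cause was not tested.

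The Egr genes encode zinc finger factors that bind GC-rich promoter sites. Egr3 had 149.8 and 140.5 FPKM with SKF plus JQ1, against 34.3 and 33.2 FPKM with JQ1, a change of 2.09 ± 0.19 (adjusted p = 1.8e-05). Egr2 had 17.7 and 16.7 FPKM with SKF plus JQ1, against 3.64 and 3.69 FPKM with JQ1, a change of 2.09 ± 0.23 (adjusted p = 6.6e-05). Egr4 had 67.8 and 59.0 FPKM with SKF plus JQ1, against 16.8 and 16.6 FPKM with JQ1, a change of 1.89 ± 0.27 (adjusted p = 0.0019). The groups were well apart for all 3 genes. Egr1, the most abundant of the family, had 220.1 and 226 FPKM with SKF plus JQ1, against 96.6 and 100.3 FPKM with JQ1. Its change of 1.18 ± 0.24 was the smallest and least firm of the 4 (adjusted p = 0.030). The SE rests on all 23 libraries fitted, among which those with SKF alone, outside this comparison, had 90.3 and 182.5 FPKM. The 2 groups of Egr1 did not overlap, yet the call was lost without any 1 of the 4 libraries compared (adjusted p of 0.173 to 0.252) and without either DMSO library (adjusted p = 0.0527), and with the first experiment fitted alone it was lost for Egr1 (adjusted p = 0.577), Egr2 (adjusted p = 0.181) and Egr4 (adjusted p = 0.428). AC111804.2, an unnamed gene just downstream of Egr3 on the same strand of chromosome 15, rose by 2.11 ± 0.18, and whether its reads are separate from those of Egr3 was not tested.

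Npas4, a factor specific to neurons that is switched on by calcium entry, had 62.1 and 72.5 FPKM with SKF plus JQ1, against 18.8 and 19.9 FPKM with JQ1 (log2 change 1.77 ± 0.20, adjusted p = 0.00019, or 0.0754 with the first experiment fitted alone). Klf4, a zinc finger factor, had 4.28 and 4.43 FPKM with SKF plus JQ1, against 0.860 and 0.947 FPKM with JQ1 (1.79 ± 0.14, adjusted p = 2.5e-07). Both genes had every SKF plus JQ1 library above every JQ1 library, which for Klf4 was required by the rule for naming rises. Of 27 immediate early transcription factor genes tested, 21 rose under JQ1 (beside 1.19% of all genes) and none fell, with a list median of 1.31 beside 0.00067 for all genes. The 6 that did not pass were Ier3, Ier5, Klf2, Klf6, Klf10 and Srf, with values between -0.25 and 0.37. Without JQ1 in the same experiment 20 of the 27 rose, with a median of 1.37. The list holds genes already known to respond to neuronal activity.

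**Figure D1:**
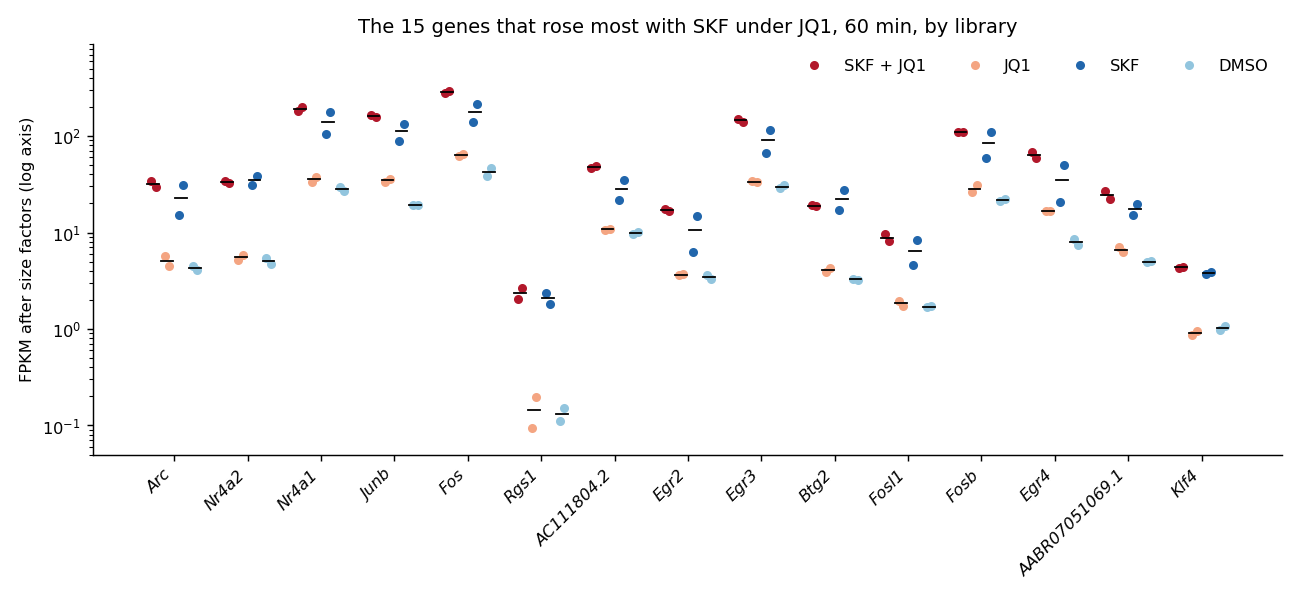
FPKM after size factors, on a log axis, of the 15 genes with the largest called rise under JQ1, in order of fold from left to right. Each point is 1 library and each black line the mean of 2, with SKF plus JQ1 left of JQ1 and SKF left of DMSO. Genes were taken only where both SKF plus JQ1 points lay above both JQ1 points. Replicate 5 of SKF is often the lower of its pair, as for Egr2, with 6.30 FPKM against 14.96 FPKM in replicate 6.

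Effector genes, whose products act on synapses and signalling rather than on transcription, responded too. Arc (chromosome 7, 115907097 to 115910541, minus strand), which acts in the trafficking of AMPA receptors, showed the largest log2 change among the called genes on the log2(FPKM + 0.5) scale. It had 34.0 and 29.9 FPKM with SKF plus JQ1, against 5.71 and 4.52 FPKM with JQ1, a log2 change of 2.53 ± 0.23 (adjusted p = 1.2e-05, or 0.071 with the first experiment fitted alone). Rgs1, which speeds the switching off of G proteins, was near the floor without SKF. It had 2.06 and 2.66 FPKM with SKF plus JQ1, against 0.0946 and 0.197 FPKM with JQ1, a change of 2.14 that the pseudocount makes smaller than the ratio of its levels. It reached 0.5 FPKM in libraries given SKF for 60 min and in no other, and so entered the test through the groups where it was high, and its change is given as a description. Btg2, an antiproliferative gene, had 19.1 and 19.0 FPKM with SKF plus JQ1, against 3.87 and 4.33 FPKM with JQ1 (2.09 ± 0.15, adjusted p = 1.3e-07). In these 3 genes the groups lay far apart.

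Tiparp, a mono-ADP-ribosyltransferase gene, had 28.5 and 28.3 FPKM with SKF plus JQ1, against 8.13 and 8.80 FPKM with JQ1, a change of 1.69 ± 0.09 (adjusted p = 2.6e-09). Vgf, which encodes a precursor of secreted neuropeptides, had 43.4 and 38.0 FPKM with SKF plus JQ1, against 11.9 and 10.97 FPKM with JQ1 (1.79 ± 0.13, adjusted p = 2.5e-07). The unnamed gene AABR07051069.1, on the unplaced scaffold KL568037.1, followed the values of Vgf in every library and rose by 1.81 ± 0.12, and it is uncertain whether its reads are its own. Homer1, a postsynaptic scaffold gene, had 37.0 and 35.1 FPKM with SKF plus JQ1, against 29.1 and 30.2 FPKM with JQ1. Its rise was 0.28 ± 0.05 (adjusted p = 0.0018, or 0.0621 with the first experiment fitted alone). The call was also lost without replicate 5 of JQ1 (rise 0.25) or of SKF plus JQ1 (rise 0.24). Most of the Homer1 signal was in 1 transcript of 9 exons, at 32.2 and 30.7 FPKM with SKF plus JQ1, against 25.3 and 26.2 FPKM with JQ1. The transcript of 5 exons stayed under 0.1 FPKM. Bdnf, the neurotrophin gene, had 0.606 and 0.493 FPKM with SKF plus JQ1, against 0.508 and 0.352 FPKM with JQ1, and the groups overlapped (0.18 ± 0.18, adjusted p = 0.92). Of 34 activity-regulated effector genes tested, 17 rose and none fell, with a median of 0.40. Without JQ1 20 rose, with a median of 0.44. Among all genes tested, 1.19% rose under JQ1 and 1.58% without it.

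Genes that end MAP kinase signalling were induced in part. Dusp1, a nuclear phosphatase of MAP kinases, had 23.1 and 22.2 FPKM with SKF plus JQ1, against 6.21 and 6.50 FPKM with JQ1 (1.75 ± 0.10, adjusted p = 7.2e-09). Dusp5, a nuclear phosphatase of ERK, had 11.01 and 11.4 FPKM with SKF plus JQ1, against 3.46 and 3.98 FPKM with JQ1 (1.48 ± 0.10, adjusted p = 4.0e-08). For both genes the stimulated libraries stood far above the others, with no overlap. Dusp14 rose by 0.98 ± 0.11, Dusp10 by 0.48 ± 0.07 and Dusp4 by 0.45. The remaining 11 of 16 genes of the list did not pass, among them Dusp6 at -0.11 and the Sprouty gene Spry4 at 0.37, and the list median was 0.15. Without JQ1 7 of the 16 rose. The shares of all genes tested that rose were 1.19% under JQ1 and 1.58% without it.

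Of the genes tied to cyclic AMP and CREB, 4 of 24 rose, beside 1.19% of all genes tested, and the list median was -0.030. Sik1 (chromosome 20, 10668411 to 10680283, minus strand), a kinase that phosphorylates the CREB coactivators of the CRTC family, had 31.6 and 31.3 FPKM with SKF plus JQ1, against 15.2 and 14.6 FPKM with JQ1 (1.05 ± 0.05, adjusted p = 2.5e-09). Per1, a clock gene, had 69.5 and 65.9 FPKM with SKF plus JQ1, against 37.4 and 35.0 FPKM with JQ1 (0.90 ± 0.09, adjusted p = 1.0e-05). Fbxo33, an F-box gene, had 19.5 and 20.3 FPKM with SKF plus JQ1, against 10.99 and 11.7 FPKM with JQ1 (0.79 ± 0.07, adjusted p = 1.8e-06). The 2 groups of each gene were tight and separate. None of the other 20 passed, among them Creb1 itself at -0.03 and the phosphodiesterase gene Pde4b at 0.09.

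Crem, the fourth of them, encodes CREB-like factors and, from an internal promoter, the short repressor ICER. The gene had 10.7 and 10.2 FPKM with SKF plus JQ1, against 3.93 and 4.53 FPKM with JQ1, a change of 1.22 ± 0.08 (adjusted p = 5.2e-08). The signal lay mainly in 1 annotated transcript of 3 exons that begins well downstream of the long ones (chromosome 17, 57074525 to 57090888 of Rnor_6.0, plus strand). That transcript had 7.85 and 7.15 FPKM with SKF plus JQ1, against 2.28 and 2.43 FPKM with JQ1. In the groups without JQ1 it had 12.7 and 12.1 FPKM with SKF, against 3.13 and 3.6 FPKM with DMSO. It was higher with SKF in both settings, and its highest values were those of SKF alone. How StringTie shares reads among overlapping transcripts was not tested.

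Promoters of the responding genes were read from RefSeq's table for the rat build GRCr8, which holds 300 bases a start site, 250 before and 50 after it. They were searched on both strands for TGACGTCA, the full cyclic AMP response element (CRE) that CREB binds, and for TGACG, the core of that element. Of the 15 largest rises 10 had a promoter in the table, and Btg2 was the only one with a full CRE. Shown are Btg2, Nr4a1 as the promoter with the most core sites among the 4 chosen by the rule for promoters, and Crem and Sstr2, added after their values were seen, as CRE holders whose responses to SKF under JQ1 differed. Each is written 5′ to 3′ on the gene's strand, with CRE and core sites on either strand in capitals.
Btg2: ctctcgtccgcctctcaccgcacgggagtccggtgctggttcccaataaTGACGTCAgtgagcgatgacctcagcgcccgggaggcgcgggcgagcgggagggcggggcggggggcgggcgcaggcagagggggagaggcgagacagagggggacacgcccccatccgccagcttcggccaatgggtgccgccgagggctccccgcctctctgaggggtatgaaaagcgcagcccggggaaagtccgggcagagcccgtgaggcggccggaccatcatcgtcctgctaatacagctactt
Nr4a1: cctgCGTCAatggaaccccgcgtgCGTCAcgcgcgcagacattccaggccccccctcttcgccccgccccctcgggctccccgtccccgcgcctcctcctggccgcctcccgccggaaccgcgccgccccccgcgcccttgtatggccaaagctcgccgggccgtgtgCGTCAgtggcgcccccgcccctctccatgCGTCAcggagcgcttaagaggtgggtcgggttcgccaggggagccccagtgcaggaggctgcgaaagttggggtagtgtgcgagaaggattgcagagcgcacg
Crem: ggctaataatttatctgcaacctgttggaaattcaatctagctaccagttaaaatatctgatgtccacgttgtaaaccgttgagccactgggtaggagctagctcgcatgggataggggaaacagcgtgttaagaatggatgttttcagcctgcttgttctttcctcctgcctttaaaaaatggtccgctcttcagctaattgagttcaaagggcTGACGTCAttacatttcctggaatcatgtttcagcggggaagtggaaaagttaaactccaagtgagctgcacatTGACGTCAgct
Sstr2: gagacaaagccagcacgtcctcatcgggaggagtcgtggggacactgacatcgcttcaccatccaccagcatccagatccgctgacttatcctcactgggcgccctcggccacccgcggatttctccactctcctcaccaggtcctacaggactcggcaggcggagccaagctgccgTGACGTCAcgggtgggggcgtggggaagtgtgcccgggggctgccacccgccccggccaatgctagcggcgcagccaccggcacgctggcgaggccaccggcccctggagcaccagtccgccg

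The Btg2 window (chr13:48087641-48087940, minus strand) held 1 CRE that begins 201 bases before the start. The Nr4a1 window (chr7:134259888-134260187, plus strand) held 4 core sites and no full CRE. The Crem window (chr17:58985240-58985539, plus strand) is 1 of 3 start sites of that gene in the table and the one with the most CREs, 1 beginning 35 bases before the start and 1 beginning 39 bases after it. The Sstr2 window (chr10:99163103-99163402, plus strand) held 1 CRE that begins 73 bases before the start. The promoters of Nr4a2 and Junb, also taken by the rule, each held 1 core site. Sstr2, a somatostatin receptor gene, did not pass under JQ1 although its window holds a CRE, as described below. A match is a description of these letters and shows no binding.

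Over all genes higher under JQ1, 132 had a promoter in the table, and 21 of these (15.9%) held a full CRE, against 323 of 9801 genes tested (3.3%). The core site was found in 83 (62.9%) of them and in 3254 of the genes tested (33.2%), and each full CRE also counts as core sites. The AP-1 site TGANTCA was found in 6.06% of the genes higher under JQ1 and 4.86% of those tested, the Egr site GCGTGGGCG in 3.03% and 1.15%, and the CArG box, which binds SRF, in 3.79% and 1.34%. Over all 27457 symbols of the table, 2% held a full CRE, 23% a core site and 8.04% an AP-1 site. No test was made of these shares, since the genes were chosen by the comparison described.

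**Figure D2:**
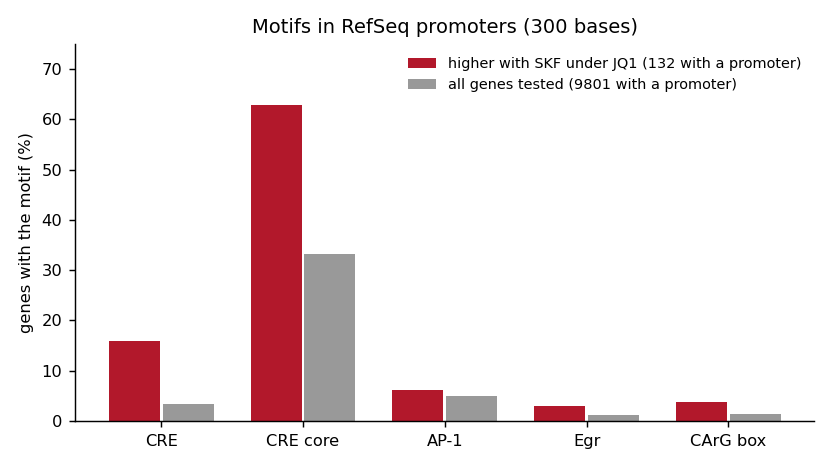
Percentage of genes with each motif in a RefSeq promoter window of 300 bases, for the genes that were higher with SKF under JQ1 (red, left bar, 132 genes with a promoter) and for all genes tested (grey, right bar, 9801 genes with a promoter). The full CRE was found in 15.9% and 3.3% and its core site in 62.9% and 33.2%, while the AP-1 bars are close to each other at 6.06% and 4.86%.

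Of the genes that define the classes of striatal neurons, 1 of 10 D1, 1 of 10 D2 and 1 of 20 shared genes passed. Over all genes tested the share called was 1.27%. Drd1 (chromosome 17, 11101306 to 11103541, plus strand), the receptor that SKF activates, had 5.02 and 5.21 FPKM with SKF plus JQ1, against 5.36 and 5.34 FPKM with JQ1, a change of -0.06 ± 0.10 (adjusted p = 0.95, 95% interval -0.26 to 0.14). Tac1, the gene of the substance P precursor and a mark of D1 neurons, had 5.35 and 4.12 FPKM with SKF plus JQ1, against 1.98 and 2.73 FPKM with JQ1, and its rise of 0.88 ± 0.15 was the one call among 10 genes of D1 neurons (adjusted p = 0.0031). Pdyn, the dynorphin precursor gene, had a value of -0.06, and the list median was -0.025. The Tac1 call was lost with the first experiment fitted alone (adjusted p = 0.0564). It was also lost without JQ1 replicate 5 (rise 0.69) or SKF plus JQ1 replicate 5 (rise 0.705). Among 10 genes of D2 neurons, Sp9, a factor needed to form those neurons, had 48.8 and 46.9 FPKM with SKF plus JQ1, against 39.1 and 37.1 FPKM with JQ1 (0.32 ± 0.05, adjusted p = 0.0011), while Drd2 had -0.04 and the list median was -0.072. Among 20 genes shared by striatal projection neurons, Dlx5, a homeobox gene, rose by 0.37 ± 0.06 (adjusted p = 0.0011), and Ppp1r1b, which encodes DARPP-32, had -0.07, with a list median of -0.039. None of 22 genes of the D1 signalling chain passed, among them the G protein genes Gnal at -0.05 and Gnas at 0.07, and the median was -0.012. In bulk RNA, fewer cells of a type and less RNA per cell cannot be told apart.

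The 11 falls were small beside the rises. Txnip (chromosome 2, 198683159 to 198686974, plus strand), which binds thioredoxin and limits glucose uptake, had 42.3 and 40.8 FPKM with SKF plus JQ1, against 74.1 and 72.5 FPKM with JQ1, a change of -0.81 ± 0.13 (adjusted p = 0.0024). Arrdc4, its arrestin-domain relative, had 5.75 and 5.67 FPKM with SKF plus JQ1, against 7.39 and 7.40 FPKM with JQ1 (-0.35 ± 0.07, adjusted p = 0.021). Med11, a subunit gene of the Mediator complex, had 6.09 and 6.64 FPKM with SKF plus JQ1, against 8.12 and 8.03 FPKM with JQ1 (-0.32 ± 0.06, adjusted p = 0.0064). The groups did not overlap in any of them, as the rule for naming falls required. Txnip fell with SKF without JQ1 as well, by 0.79 on the log2 scale (adjusted p = 0.0022), whereas Arrdc4 had -0.10 and Med11 had 0.03 there and neither passed. In the second experiment Arrdc4 had -0.23 (adjusted p = 0.16) and Med11 -0.20 (adjusted p = 0.11), values below 0 that did not pass. Histone genes on chromosome 4 made up 4 of the falls. Hist2h4a had 122 and 119.5 FPKM with SKF plus JQ1, against 141 and 139 FPKM with JQ1 (-0.21 ± 0.05, adjusted p = 0.031), and Hist2h4, Hist1h4b and Hist1h2ao had near-identical FPKM and the same change of -0.26, so they may count the same reads. LOC690617 fell by 0.44, Zfp780b-ps1 by 0.32 and Zfp955a by 0.25. The Arrdc4 call was lost without any 1 of the 4 libraries (adjusted p of 0.151 to 0.205), and of the 10 falls named here Txnip alone was called under all 16 alternatives.

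A few stress genes moved. Ddit3, the CHOP factor of the stress response of the endoplasmic reticulum, had 7.02 and 6.97 FPKM with SKF plus JQ1, against 4.75 and 3.92 FPKM with JQ1 (0.64 ± 0.11, adjusted p = 0.0032). The chaperone genes Dnajb1 and Hspa5 rose by 0.30 ± 0.05 (adjusted p = 0.0045) and 0.25 ± 0.05 (adjusted p = 0.019). With the fall of Txnip, 4 of 17 stress genes were called, beside 1.27% of all genes tested, and the list median was 0.16. Rel, an NF-kB subunit gene, rose by 0.62 ± 0.12 (adjusted p = 0.0092) and was the one call among 14 NF-kB and inflammatory genes, whose median was 0.091. No call was made among 21 genes of BET proteins and transcription elongation, whose median was 0.0024. Hexim1, an inhibitor of P-TEFb, had 0.28 ± 0.09 (adjusted p = 0.30). By limma voom on reads estimated from coverage it passed, at 0.29 (adjusted p = 0.043). With the first experiment fitted alone the calls of Rel (adjusted p = 0.0621), Dnajb1 (adjusted p = 0.0876) and Hspa5 (adjusted p = 0.162) were lost. The call was lost without any 1 of the 4 libraries for Hspa5 (adjusted p of 0.104 to 0.228), and without JQ1 replicate 6 for Ddit3 (adjusted p = 0.102) and Rel (adjusted p = 0.154). It was also lost without SKF plus JQ1 replicate 6 for Rel (adjusted p = 0.219), and for Dnajb1 without SKF plus JQ1 replicate 5 or either JQ1 library (adjusted p of 0.0506 to 0.119). None of 27 glutamate receptor and postsynaptic density genes passed, though 24 of them lay below 0, with a median of -0.076 and Gria2 at -0.11. Of all 14007 genes tested, 7038 lay above 0, and the shift of this list was not tested.

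**Figure D3:**
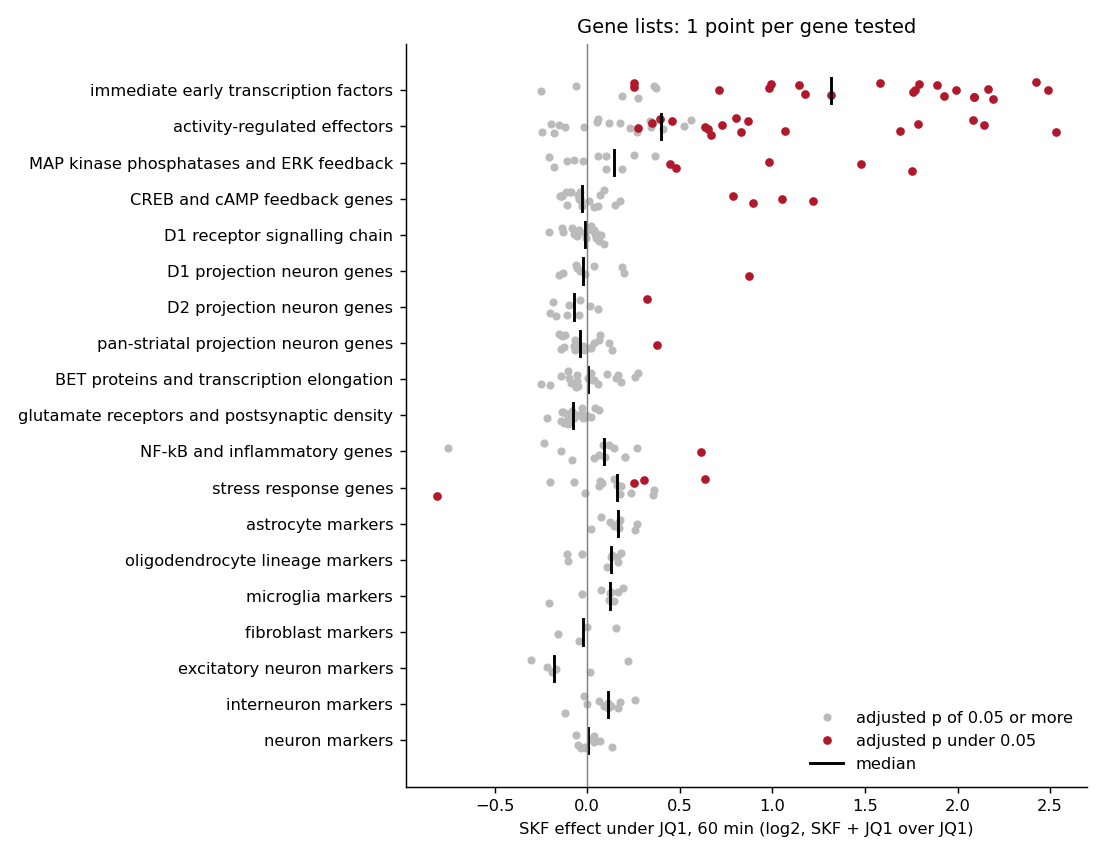
SKF effect under JQ1 at 60 min, as the log2 change of SKF plus JQ1 over JQ1, for every tested member of 19 gene lists (rows). Points in red had an adjusted p under 0.05, points in grey did not, and black bars are list medians. The upper 2 lists hold the most calls, 21 of 27 and 17 of 34 genes, with medians of 1.31 and 0.40. The CREB and stress lists hold 4 calls each, of 24 and 17 genes. The lists of cell type markers in the lower rows hold no red point.

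Markers of other cell types were measured in the same libraries. None of 10 astrocyte markers passed, but all 10 lay above 0 with a median of 0.17, beside 7038 of all 14007 genes above 0. Their summed level was 438 and 463 FPKM with SKF plus JQ1, against 380 and 401 FPKM with JQ1. None of these 10 genes was under 0.1 FPKM in the 4 libraries. The oligodendrocyte markers summed to 60.8 and 61.7 FPKM with SKF plus JQ1, against 55.9 and 55.5 FPKM with JQ1, and the microglia markers to 82.5 and 78.2 FPKM, against 72.2 and 76.2 FPKM. No member of these lists passed, of 9 and of 10 tested, with medians of 0.13 and 0.12. The markers of neurons in general summed to 2915 and 2922 FPKM with SKF plus JQ1, against 2893 and 2918 FPKM with JQ1 (median 0.0054 over 10 genes). Of 9 endothelial and mural markers matched, none was tested and 6 were under 0.1 FPKM in all 4 libraries, Cldn5, Flt1, Kdr, Cdh5, Vwf and Tek. None of 4 fibroblast, 6 excitatory neuron or 11 interneuron markers passed, with medians of -0.024, -0.18 and 0.11. The part of the glial markers in the calls above was not tested.

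The same stimulus was also given without JQ1, in libraries of its own, with calls that rest on the same estimate of each gene's spread. SKF over DMSO in the first experiment gave 240 calls (1.71%), 222 higher (1.58%) and 18 lower (0.129%), and in the second experiment 332 (2.37%), 291 higher (2.08%) and 41 lower (0.293%). Of the 167 genes higher under JQ1, 139 were also higher without JQ1 in the first experiment, which is 83.2% of the 167 and 62.6% of the 222. In the second experiment 147 were also higher, which is 88.0% of the 167 and 50.5% of the 291. Of the 11 lower under JQ1, 2 were also lower in the first experiment and 2 in the second.

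**Figure D4:**
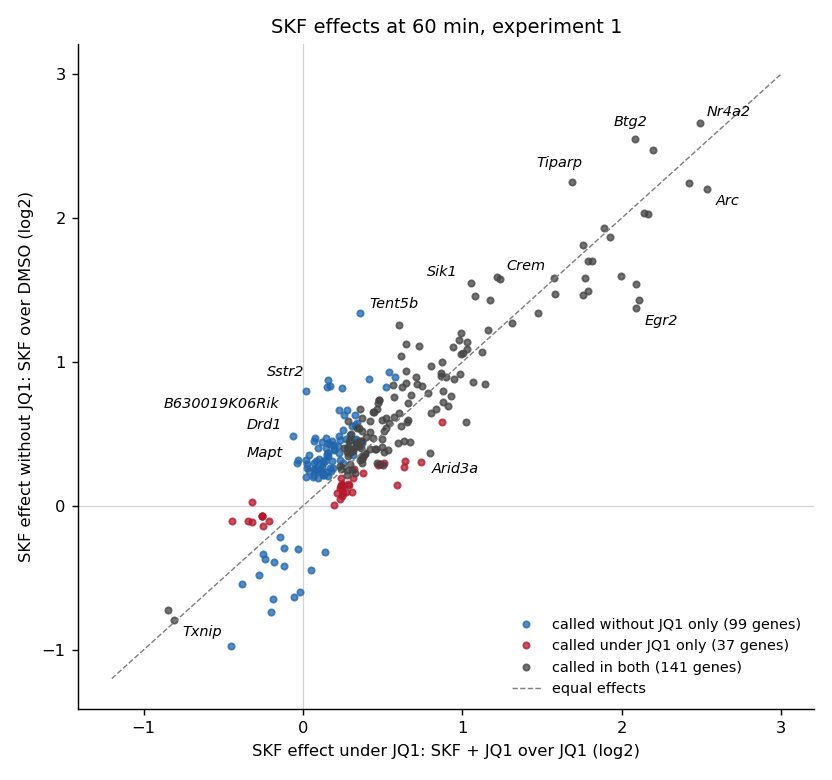
SKF effect under JQ1 (x axis, SKF plus JQ1 over JQ1) against SKF effect without JQ1 (y axis, SKF over DMSO), both log2, for genes called in at least 1 of them in the first experiment. The 141 genes called in both lie on either side of the dashed line of equal effects, while 99 were called without JQ1 only and 37 under JQ1 only. Sstr2, B630019K06Rik, Mapt and Drd1 lie near 0 on the x axis and above 0 on the y axis.

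Genes called higher with SKF in the second experiment were followed in the first. Their fold changes come from other libraries, but all calls share 1 estimate of the spread per gene from the 23 libraries, so the choice is not independent of the first experiment. Of these 291 genes, 147 were called higher under JQ1 and none lower, and 277 had a value above 0, beside 7038 of all 14007. Their median was 0.31 under JQ1 and 0.40 without it. The effect was smaller under JQ1 than without it for 205 of the 291, beside 7224 of all 14007. This shift was not tested. Among the 52 that had at least doubled in the second experiment, 50 were called under JQ1 and all 52 without it, with medians of 1.20 and 1.40. The exceptions under JQ1 were Tent5b and Sstr2. The lowest values among those called were those of Cited1 at 0.60, Sertad1 at 0.65 and Pim1 at 0.65, and the highest those of Arc, Nr4a2, Nr4a1, Junb and Fos. Each of the calls of Cited1, Sertad1 and Pim1 was lost without any 1 of the 4 libraries (adjusted p of 0.0771 to 0.332). A further 62 genes were called higher without JQ1 in both experiments and not under JQ1. Their median was 0.17 under JQ1 and 0.41 without it in the first experiment, and as they were chosen for lacking the call under JQ1 the gap is a description. Without JQ1 replicate 5, 97 of the 291 were called higher under JQ1.

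Whether JQ1 altered the SKF effect was tested directly, as the SKF effect under JQ1 minus the SKF effect without it. No gene passed with limma (0 of 14007; 448 at an unadjusted p under 0.05), and 1 passed with limma voom on reads estimated from coverage. The lowest p was that of Sik1. It had 31.6 and 31.3 FPKM with SKF plus JQ1 and 15.2 and 14.6 FPKM with JQ1, beside 44.97 and 49.8 FPKM with SKF and 15.6 and 16.2 FPKM with DMSO. The levels without SKF were close, and the stimulated levels lay apart. The difference of the effects was -0.50 (95% interval -0.65 to -0.34, adjusted p = 0.061), with effects of 1.05 under JQ1 and 1.55 without it. It passed on FPKM as deposited (adjusted p = 0.048), with no filter on low values (adjusted p = 0.041) and by voom (adjusted p = 0.014). No gene passed with a pseudocount of 0.1 or 1, with the replicate block or with the first experiment fitted alone. Without SKF replicate 5, the lower of the 2 SKF libraries over the early genes, the Sik1 difference was -0.57.

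Next in order of p came Mapt, Tent5b, B630019K06Rik and Sstr2, each with an adjusted p of 0.17 for the difference. Sstr2 had 1.28 and 1.53 FPKM with SKF plus JQ1 and 1.30 and 1.12 FPKM with JQ1, beside 3.46 and 3.40 FPKM with SKF and 1.61 and 1.68 FPKM with DMSO. The groups under JQ1 overlapped, and those without it did not. The effect was 0.16 under JQ1 (adjusted p = 0.85) and 0.88 without it (adjusted p = 1.6e-05), and the difference was -0.72 (95% interval -1.01 to -0.43). B630019K06Rik had 7.46 and 6.91 FPKM with SKF plus JQ1 and 6.42 and 6.24 FPKM with JQ1, beside 14.1 and 16.4 FPKM with SKF and 8.12 and 8.54 FPKM with DMSO. Its effects were 0.17 under JQ1 and 0.83 without it, a difference of -0.66 (95% interval -0.93 to -0.40). Mapt, the tau gene, had 240.1 and 234 FPKM with SKF plus JQ1 and 245 and 241 FPKM with JQ1, beside 293 and 294 FPKM with SKF and 238 and 233 FPKM with DMSO. Its effects were -0.03 under JQ1 and 0.32 without it, a difference of -0.35 (95% interval -0.49 to -0.22), but its SKF effect in the second experiment was 0.06 (adjusted p = 0.68).

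Tent5b, which encodes a poly(A) polymerase, was expressed at a low level. It had 0.263 and 0.201 FPKM with SKF plus JQ1 and 0.0779 and 0.0633 FPKM with JQ1, beside 0.905 and 1.34 FPKM with SKF and 0.105 and 0.170 FPKM with DMSO. The SKF plus JQ1 libraries lay above the JQ1 libraries, at levels under the pseudocount of 0.5, where the log2 scale compresses changes. Its effect under JQ1 was 0.36 on that scale (adjusted p = 0.43) and 1.70 by voom (adjusted p = 0.038), and its difference was -0.98 (95% interval -1.36 to -0.59). Without SKF replicate 5 the difference was -0.57 for Sik1, -0.77 for Tiparp and -1.175 for Tent5b. All 3 effects were smaller under JQ1. In the first experiment Tent5b reached 0.5 FPKM, the level needed for the test, only with SKF alone. That is the group where it was high, so its difference is given as a description.

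Drd1, Tiparp and Crem showed the same direction without passing in the fit to all 23 libraries. Drd1 had 5.02 and 5.21 FPKM with SKF plus JQ1 and 5.36 and 5.34 FPKM with JQ1, beside 14.4 and 17.8 FPKM with SKF and 11.5 and 11.1 FPKM with DMSO. The receptor gene rose with SKF without JQ1, by 0.49 (adjusted p = 0.0083), and the difference of -0.55 had an interval of -0.83 to -0.26 and an adjusted p of 1. Tiparp had effects of 1.69 under JQ1 and 2.25 without it (difference -0.56, adjusted p = 0.58), and here the stimulated levels overlapped, 28.5 and 28.3 FPKM with SKF plus JQ1 beside 22.0 and 29.5 FPKM with SKF, while the levels without SKF were 8.13 and 8.80 FPKM with JQ1 and 4.999 and 4.89 FPKM with DMSO. Crem had effects of 1.22 and 1.59 (difference -0.37, adjusted p = 1). Ell2, an elongation factor gene, rose without JQ1 by 0.63 (adjusted p = 0.00025) and had 0.26 under it (adjusted p = 0.37), a difference of -0.38 with an adjusted p of 1.

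**Figure D5:**
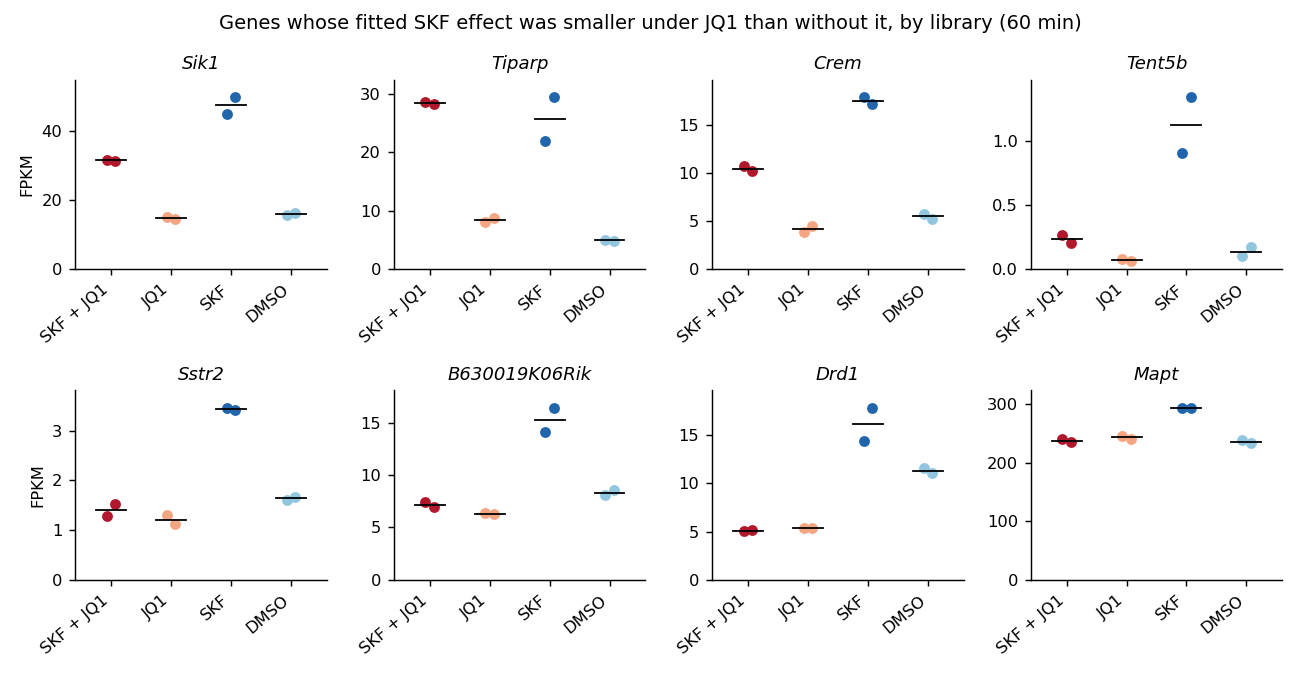
FPKM after size factors of 8 genes in the libraries of the first experiment, with SKF plus JQ1 left of JQ1 and SKF left of DMSO. Points are libraries and black lines the means of 2. Sik1 and Crem are higher with SKF in both settings, the groups of Sstr2, B630019K06Rik, Drd1 and Mapt lie closer together under JQ1 than without it, and the Tiparp values of SKF plus JQ1, 28.5 and 28.3 FPKM, lie within the range of SKF alone.

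Effects that were larger under JQ1 did not pass as differences either. For genes of the immediate early list the differences were of both signs, with a median of 0.11. Egr2 had an effect of 2.09 under JQ1 and 1.37 without it, a difference of 0.71 (95% interval 0.0066 to 1.42, adjusted p = 1). Its SKF libraries were at 6.30 and 14.96 FPKM. Without SKF replicate 6 the Egr2 difference was 1.31. Fos had a difference of 0.14 (95% interval -0.39 to 0.66), Nr4a2 one of -0.17 (95% interval -0.48 to 0.14) and Arc one of 0.33 (95% interval -0.36 to 1.03). Called under JQ1 and in neither experiment without it were 21 genes, 13 higher and 8 lower. The largest were Arid3a, a DNA-binding factor gene, at 0.74, Ddit3 at 0.64, Nptx2, which encodes a synaptic pentraxin, at 0.63, Diaph3, a formin gene, at 0.59, and Sat1, whose product acetylates polyamines, at 0.47. The Diaph3 and Sat1 calls were lost without any 1 of the 4 libraries (adjusted p of 0.137 to 0.376).

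Nptx2 had 5.37 and 4.83 FPKM with SKF plus JQ1 and 3.14 and 3.07 FPKM with JQ1, beside 3.75 and 4.07 FPKM with SKF and 3.04 and 3.27 FPKM with DMSO. Arid3a had 3.31 and 2.82 FPKM with SKF plus JQ1 and 1.64 and 1.62 FPKM with JQ1, beside 2.55 and 3.03 FPKM with SKF and 2.19 and 2.11 FPKM with DMSO. In both genes SKF libraries lay above those without SKF in each setting of the first experiment. Nptx2 had an SKF effect without JQ1 of 0.27 there (adjusted p = 0.31) and 0.03 in the second experiment (adjusted p = 0.96). Neither gene passed without JQ1. Their differences were 0.36 and 0.43, with an adjusted p of 1.

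Several genes stood at other levels with JQ1 than with DMSO, a contrast not tested here. Egr1 had 220.1 and 226 FPKM with SKF plus JQ1 and 96.6 and 100.3 FPKM with JQ1, beside 90.3 and 182 FPKM with SKF and 44.8 and 49.9 FPKM with DMSO. Sertad1 had 13.6 and 12.8 FPKM with SKF plus JQ1 and 8.41 and 8.09 FPKM with JQ1, beside 2.996 and 3.72 FPKM with SKF and 1.27 and 1.77 FPKM with DMSO. In both genes the JQ1 libraries without SKF were already above the DMSO libraries. Txnip had 42.3 and 40.8 FPKM with SKF plus JQ1 and 74.1 and 72.5 FPKM with JQ1, beside 12.5 and 9.04 FPKM with SKF and 19.7 and 17.9 FPKM with DMSO. Its effect was -0.81 under JQ1 and -0.79 without it, a difference of -0.02 (95% interval -0.42 to 0.38), while all levels under JQ1 were higher. Myc had 6.11 and 5.97 FPKM with SKF plus JQ1 and 7.25 and 6.82 FPKM with JQ1, beside 16.6 and 16.2 FPKM with SKF and 16.9 and 19.0 FPKM with DMSO, and it passed in neither setting.

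At 24 h, in the third experiment, SKF plus JQ1 over JQ1 gave 142 calls (1.01%), 49 higher (0.35%) and 93 lower (0.664%). Of the 167 genes higher at 60 min, 7 were also higher at 24 h, which is 4.19% of the 167 and 14.3% of the 49. They were Vgf, Tac1, the glucose transporter gene Slc2a1, the amino acid transporter gene Slc38a2, Csrnp2, Narf and AABR07051069.1. Vgf rose by 1.79 at 60 min and 0.86 at 24 h, and Tac1 by 0.88 and 0.71. Txnip and Arrdc4 were lower at both times, at -0.81 and -0.35 at 60 min and -0.70 and -0.73 at 24 h. Arc, Nr4a2 and Fos, with 24 h values of 0.02, 0.07 and 0.49, did not pass then. The times come from separate experiments and no difference between them was tested, and the 24 h count of 142 depended on single libraries. When SKF plus JQ1 replicate 5 was left out, 31 genes were higher and 34 lower, and with replicate 6 of that group left out 42 and 163. When JQ1 replicate 5 was left out, 22 were higher and 25 lower, and with replicate 6 of that group left out 25 and 24. The excess of lower calls was thus much reduced or absent in all but 1 of these 4 fits.

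The genes that rose under JQ1 were compact. Their median span in the files' annotation was 9.01 kb, against 19.6 kb for all genes tested, and 71.9% spanned at most 20 kb, against 50.5%. They had a median of 5 exons in the transcript with the most, against 8. Their longest transcripts were close in length to the rest, with a median of 2484 nucleotides against 2198. Their median level in the JQ1 libraries was 10.2 FPKM, against 7.31 FPKM. The 222 genes that rose without JQ1 in the same experiment had a median span of 12.4 kb and 4 exons. These are descriptions of the called genes, with no test.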

How the data were processed

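RNA of 24 samples in 12 groups was sequenced by the authors, of which 23 entered the analysis (the second SKF plus iBD2 library was not used here). The submitters' processing notes name, for the authors' own work, StringTie, STAR, Trim Galore, FastQC and DESeq2 and the build Rnor_6.0, without versions. The deposited tables list 41078 transcripts of 32883 genes with FPKM and with coverage, the signal per base, per the file headers. Use of strand in counting is not stated in those sources, which leaves antisense and overlapping genes uncertain.

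FPKM were summed per gene identifier, divided by a median-ratio size factor (0.976 to 0.992 in the 4 libraries compared, 0.942 to 1.06 over all) and taken as log2(FPKM + 0.5), which understates changes of low genes. Kept were genes that reached 0.5 FPKM in 2 or more libraries and had a transcript of 200 nucleotides or more. FPKM are not counts, so a limma model (version 3.58.1 under R 4.3.3, trend and robust) was fitted to all 23 libraries with 1 mean per group and 11 residual degrees of freedom. The single SKF plus iBD2 library was taken to have the spread of the rest. Contrasts were tested on both sides with Benjamini-Hochberg adjustment. Aligned bases came from coverage and FPKM. Depth is known only as bases, so no counting interval is given.

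The 20 lists are those reported above by count and median, 12 of pathways, complexes and neuron classes and 8 of cell type markers. Named were the 15 largest rises and 10 largest falls among called genes with a symbol, at least 1 FPKM on average in the higher group and no overlap between groups, up to 4 members of a list by smallest p, the 5 smallest p of the difference, the 5 extremes of each kind named above and a fixed set of well-known genes. Further members of a list are named only with their values. The members and lists were chosen with earlier results of these data known. The fit was run on simulated data with independent normal noise of the fitted size, which cannot show the effect of related or outlying libraries. There 39 of 50 genes with a log2 shift of 0.5 were called, 48 of 50 with a shift of 1 and 14 of 13807 with none. The 16 alternatives changed 1 choice at a time: the scaling between libraries, the pseudocount (0.1 or 1), the low-value filter, a replicate block, the libraries fitted together, voom weights from coverage-derived reads, or 1 omitted library.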

Additional observations from a re-analysis of the deposited data

How the results depend on the processing

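The 16 alternatives for the SKF effect under JQ1 reversed no named gene, and 11 of the 15 largest rises were called in all of them. The exceptions were Arc, Egr2, Fosb and Egr4, lost with the first experiment fitted alone. Of 54 named genes called under JQ1, 28 were called in all 16. Of 59 named genes not called, 2 were called in at least 1 alternative, Hexim1 and Tent5b, both by voom. The count of 178 was 169 on FPKM as deposited, 213 by voom and 114 with the first experiment fitted alone, and it ranged over 105 to 187 when 1 library was left out, with 105 without JQ1 replicate 5 and 112 and 117 without SKF plus JQ1 replicates 5 and 6. Without JQ1 the 240 calls were 156 with the first experiment alone and 161 to 229 with 1 library left out, and the 332 calls of the second experiment were 201 to 269. For the difference of effects, 0 calls became 1 on FPKM as deposited, 6 with no filter, 1 by voom and 0 to 3 with 1 library left out. At 24 h 142 calls became 47 and 49 without 1 JQ1 library, and 65 and 205 without 1 SKF plus JQ1 library, and the 147 followed genes 97 to 155. The cause of these moves was not tested.

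The replicate numbers could not be shown to pair the samples. The deviations of same-numbered SKF plus JQ1 and JQ1 libraries from their group means correlated at -0.1003, and at -0.267 to 0.366 over the pairs of groups in the first experiment. With the replicate block, which lost the calls of Zfp780b-ps1, Hist2h4a and Diaph3 under JQ1, 176 genes were called under JQ1, 240 without it, 346 in the second experiment, 0 for the difference, 171 at 24 h and 147 of the followed genes. A crossed replicate block, chosen after seeing the data, gave 168 calls under JQ1 and 141 followed genes, and lost the calls of Egr1 (adjusted p = 0.0509) and Zfp955a (adjusted p = 0.051) among others. Tent5b, at 0.0633 to 0.263 FPKM in the 4 libraries, lies under the pseudocount of 0.5, where changes are compressed.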
